A study of Mus musculus with 32 samples.

Results

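The cell cycle and mitosis genes described here are 45 genes that dividing cells switch on or need: the cyclins and their kinases, the factors that license and copy DNA, the enzymes that supply nucleotides, and the machinery of the mitotic spindle. They were found by gene name among the non-control probes of the arrays, where 84 probes carry one of the 45 names. Of these, 44 genes had a probe bright enough to be tested, out of 23644 tested genes. The only exception was Ccne2, which encodes cyclin E2. It was not well above background on any of the 32 arrays. Its unfiltered log2 difference between diets was 0.08 in E171 mice and 0.04 in control mice.

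The study measured total RNA of the liver in 32 males of the F1 generation of C57BL/6J mice, 8 in each of 4 groups, with 1 one-colour (Cy3) array per animal. The groups were mice on a Western diet with E171 (WD_E171), mice on a Western diet with control pellets (WD_CONT), mice on a normal diet with E171 (ND_E171) and mice on a normal diet with control pellets (ND_CONT). E171 is food-grade titanium dioxide, a white food colour, mixed into the pellets to reach a daily target dose of 10 mg/kg body weight. The F0 mothers ate the same type of pellet for 40 days before mating, and the F1 mice stayed on the treatment of their mother. The Western diet, called high-fat in the treatment description, was given from 5 weeks of age for 16 weeks, so that all mice were sampled at 21 weeks of age. Litter is not given, so the tests treat the 8 mice of a group as independent although some may be littermates. The stated question was whether diet aggravates the response to the additive.

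An adult hepatocyte rarely divides, but the liver keeps the ability to enter the cell cycle after injury or loss of tissue. In a cycling cell, cyclin D and cyclin E with their kinases release E2F factors, which switch on genes for DNA replication, and later cyclin A, cyclin B and Cdk1 drive mitosis together with FoxM1 and the MuvB complexes. mRNAs of the mitotic genes are scarce in cells that do not divide, and so the sum of them in a tissue is widely read as a mark of proliferation. Whole liver RNA holds all of its cell types, and in such bulk samples fewer cells of a type and less RNA per cell cannot be told apart.

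The promoters of mitotic genes are known for a CHR element (letters TTTGAA), bound by MuvB complexes, which often lies downstream of CCAAT boxes bound by NF-Y, and those of replication genes for E2F sites (searched here as TTGGCGC and TTCGCGC). Below are the 250 bases before the annotated start of Cdc20 and Cenpf, the mitotic members of highest average diet difference with a usable entry, and of Top2a and Mcm2, chosen in the same way among the replication members. All 4 lie on the minus strand of GRCm38.p6 and come from RefSeq, written 5′ to 3′ along the gene, with every CHR and CCAAT match on either strand in capitals (TTCAAA and ATTGG are the same letters read on the other strand).
Cdc20, chr4:118437344-118437593: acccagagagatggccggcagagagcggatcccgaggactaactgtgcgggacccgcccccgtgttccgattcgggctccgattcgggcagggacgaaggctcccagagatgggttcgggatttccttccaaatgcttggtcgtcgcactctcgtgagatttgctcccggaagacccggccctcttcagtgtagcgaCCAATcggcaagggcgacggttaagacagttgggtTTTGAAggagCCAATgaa
Cenpf, chr1:189688087-189688336: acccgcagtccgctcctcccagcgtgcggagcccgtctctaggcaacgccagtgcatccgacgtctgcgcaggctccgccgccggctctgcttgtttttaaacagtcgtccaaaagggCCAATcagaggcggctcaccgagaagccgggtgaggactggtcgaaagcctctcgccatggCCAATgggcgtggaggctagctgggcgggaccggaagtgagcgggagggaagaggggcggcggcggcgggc
Top2a, chr11:99024190-99024439: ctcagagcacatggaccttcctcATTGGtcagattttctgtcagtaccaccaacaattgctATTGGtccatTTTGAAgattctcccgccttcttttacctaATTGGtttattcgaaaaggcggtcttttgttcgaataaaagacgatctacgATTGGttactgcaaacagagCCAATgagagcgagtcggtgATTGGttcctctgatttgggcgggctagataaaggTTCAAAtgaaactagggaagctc
Mcm2, chr6:88898781-88899030: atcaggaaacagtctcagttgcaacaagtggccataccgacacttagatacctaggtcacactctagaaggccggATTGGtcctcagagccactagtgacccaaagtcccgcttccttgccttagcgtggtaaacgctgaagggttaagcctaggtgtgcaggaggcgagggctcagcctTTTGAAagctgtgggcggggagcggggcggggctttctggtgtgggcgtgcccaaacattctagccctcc

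Cdc20 holds TTTGAA 18 to 13 bases before its start, with 1 CCAAT box 53 to 49 bases and another 8 to 4 bases before it. Top2a holds 6 CCAAT letters and 2 CHR matches, one of them 23 to 18 bases before the start. Mcm2 holds 1 of each, and Cenpf 2 CCAAT boxes and no TTTGAA in this stretch. None of the 4 stretches holds either E2F sequence. Matches were counted over windows of 300 bases, from 250 before to 50 after the start, on both strands, and an E2F match on the opposite strand can share bases with a CCAAT match. Of the 45 members, 36 have an entry, and 15 of these (41.7%) hold TTTGAA, against 20.2% of the 27025 genes in the table. CCAAT letters occur in 26 of the 36 (72.2%), against 41.1% of all genes, and both together in 15 (41.7%), against 8.97%. An E2F sequence occurs in 7 (19.4%), against 4.47%. By role, TTTGAA occurs in 4 of 6 checkpoint and anaphase genes, 3 of 5 mitotic kinase and passenger genes and 3 of 5 spindle genes, in 2 of 8 replication genes, in 2 of 6 kinases and cyclins and in Mki67. E2F letters occur in 4 of 8 replication genes, in 2 of 6 kinases and cyclins and in Mki67, and in none of those 3 mitotic sets. No difference between roles was tested. These are matches of letters and not measured binding, and a window without a match says nothing about a factor.

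Levels below are log2 of the processed signal minus the 75th percentile of its array, so that 0 is the brightness of the 75th percentile spot and a difference of 1 is a 2-fold difference. Each probe has its own brightness, so levels are compared between mice and not between genes. Arrays had 32163 to 37261 probes well above background and a 75th percentile of 248 to 484 intensity units, with 0 saturated spots, and correlated at 0.981 to 0.996 within groups. Each of the 4 slides held 2 mice of every group. Differences between groups are given with the standard error (SE) of a limma model over all 23644 genes, and adjusted p is Benjamini-Hochberg's over those genes, two-sided, called below 0.05. The number of arrays, 8 per group, sets the precision.

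On the Western diet most cell cycle mRNAs were more abundant, and by fitted values those of mitosis rose by the most. In E171 mice 36 of the 44 tested members were higher on the Western than on the normal diet and 1 was lower, where 21.9% of all tested genes were called higher, 32% lower and 53.9% in either direction. In control mice the same 36 were higher and the same 1 was lower, where 18.7% of all genes were called higher, 28.7% lower and 47.4% in either direction. The median log2 difference of the members was 1.62 in E171 mice and 1.91 in control mice, against -0.11 and -0.10 over all tested genes. Of the 44, 34 passed the brightness filter in a normal-diet group, and 26 of these 34 were higher in each comparison. The other 10 (Cdk1, Melk, Cdc25c, Bub1, Bub1b, Ttk, Cenpf, Kif11, Tpx2 and Nusap1) passed only through a Western-diet group, which by itself favours a call of higher, and they add nothing to the count as evidence. The 7 members called in neither comparison were Cdk2, Cdk4, Cdc6, Mcm7, Pcna, Rrm2 and Tyms, and the 1 lower was Tk1. The groups did not overlap at all in 32 of the 44 members in E171 mice, where 8.94% of all genes lay apart in this direction, and in 27 in control mice, where 4.61% did. Over the 34 members that passed in a normal-diet group these counts were 25 and 20.

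**Figure D1:**
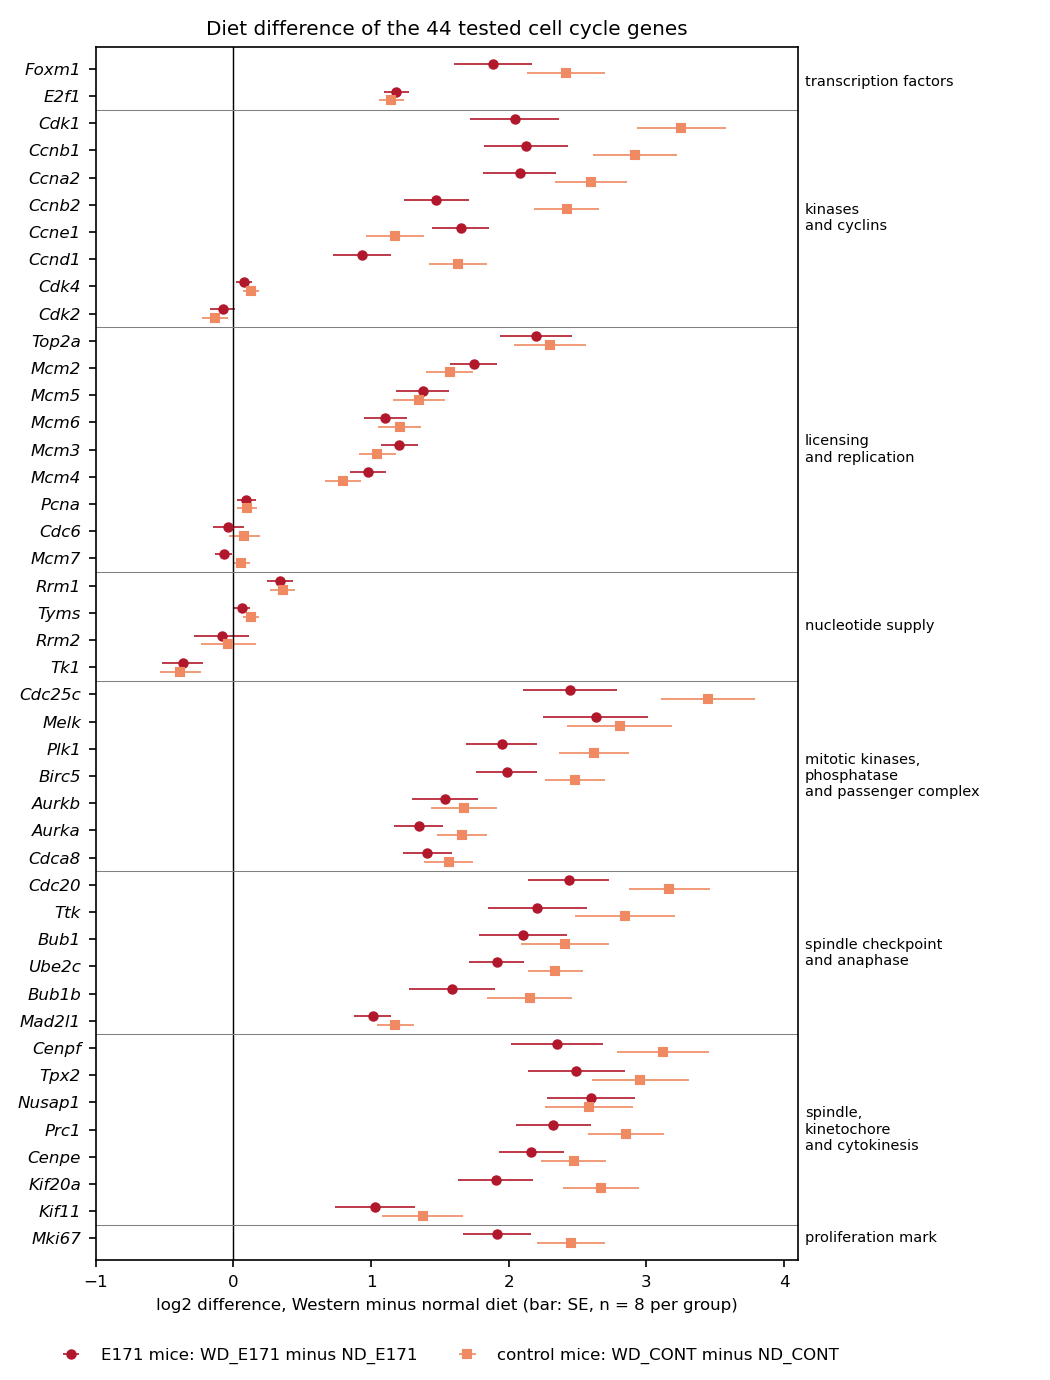
Log2 difference between Western and normal diet for each of the 44 tested cell cycle genes, grouped by role, in E171 mice (dark red circles, WD_E171 minus ND_E171) and control mice (orange squares, WD_CONT minus ND_CONT), with SE bars from limma and n = 8 mice per group. Values run from -0.37 to 2.63 in E171 mice and from -0.38 to 3.45 in control mice, and genes of nucleotide supply sit near 0 while genes of mitosis sit to the right. The probes shown for Melk, Cdc25c, Bub1, Bub1b and Ttk were not well above background on any array of a normal-diet group, so their points are fitted values and not measured folds.

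Among the kinases and cyclins, 6 of 8 tested members were higher in both diet comparisons, where 21.9% and 18.7% of all tested genes were higher in E171 and control mice. Of the 7 that passed the filter in a normal-diet group, 5 were higher in each. The groups of 4 members, Cdk1 among them, did not overlap in either comparison, where 8.94% and 4.61% of all genes lay apart in this direction. The same shares stand beside the counts of the roles below. Cdk1, the kinase that drives entry into mitosis, had log2 levels of -4.47, -3.74 and -2.91 (lowest, median and highest of 8 mice) in WD_E171 and -4.34, -2.56 and -1.88 in WD_CONT, against -6.67, -5.73 and -5.10 in ND_E171 and -7.37, -5.69 and -5.26 in ND_CONT. Every Western-diet mouse lay above every normal-diet mouse. Cdk1 was well above background in only 1 of 8 ND_E171 and 1 of 8 ND_CONT mice. The gap and the fitted differences therefore rest on normal-diet values near background. Cdk1 also passed the filter only through a Western-diet group, which by itself favours such a gap. The log2 difference between diets was 2.04 ± 0.32 (SE, n = 8, limma adjusted p = 4.89e-06) in E171 mice and 3.25 ± 0.32 (SE, n = 8, limma adjusted p = 2.70e-09) in control mice. Under the alternative processing settings the Cdk1 difference ran from 0.33 to 2.15 in E171 mice and from 0.79 to 3.48 in control mice. The Cdk1 probe lies at chr10:68805423-68807832 (mm9, minus strand).

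Ccnb1, cyclin B1 and the partner of Cdk1 in mitosis, had levels of -3.59, -2.52 and -1.66 in WD_E171 and -3.07, -1.54 and -0.89 in WD_CONT, against -5.36, -4.71 and -4.13 in ND_E171 and -5.39, -4.62 and -3.57 in ND_CONT. The diets did not overlap within E171 mice or within control mice, though the lowest WD_E171 mouse lay just below the highest ND_CONT mouse, and all 32 arrays measured Ccnb1 above background (probe at chr13:101548722-101548781, mm9). It was higher by 2.12 ± 0.31 in E171 mice (SE, limma adjusted p = 1.15e-06) and by 2.91 ± 0.31 in control mice (SE, limma adjusted p = 7.55e-09). Ccna2, cyclin A2, which acts in both replication and mitosis, was higher by 2.08 and 2.60 in E171 and control mice, and Ccnb2, cyclin B2, by 1.47 and 2.42. Other cyclins act earlier, before replication starts. Ccnd1, cyclin D1, which responds to growth signals, was higher by 0.93 in E171 mice and 1.63 in control mice. Ccne1, cyclin E1, was higher by 1.65 in E171 mice and 1.18 in control mice. Of the 36 members higher in both comparisons, Ccne1 and 6 others had the larger difference in E171 mice. The kinases Cdk2 and Cdk4, partners of those early cyclins, were not called, with log2 differences of -0.08 and 0.08 in E171 mice and -0.13 and 0.13 in control mice. Their mRNAs were present in all groups, Cdk4 at a median of 3.02 in WD_E171, 3.05 in WD_CONT, 2.93 in ND_E171 and 2.92 in ND_CONT.

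Both transcription factors were higher on the Western diet. Foxm1, which activates mitotic genes, had levels of -4.36, -3.28 and -2.78 in WD_E171 and -4.06, -2.62 and -1.93 in WD_CONT, against -5.68, -5.23 and -4.86 in ND_E171 and -6.37, -5.14 and -4.32 in ND_CONT. The diets did not overlap within E171 mice or within control mice, though the lowest WD_E171 mouse lay just below the highest ND_CONT mouse. The Foxm1 difference was 1.89 ± 0.28 in E171 mice (SE, limma adjusted p = 2.26e-06) and 2.42 ± 0.28 in control mice (SE, limma adjusted p = 5.48e-08), from a probe at chr6:128325837-128325898 (mm9). Foxm1 has 2 further probes, both too dim to be kept, at 0.96 and -0.28 in control mice.

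E2f1, which activates replication genes, had the narrowest spread of these regulators: -1.01, -0.82 and -0.67 in WD_E171 and -1.23, -0.73 and -0.40 in WD_CONT, against -2.21, -2.03 and -1.77 in ND_E171 and -2.18, -1.91 and -1.74 in ND_CONT. All Western-diet mice lay above all normal-diet mice. The difference was 1.18 ± 0.09 in E171 mice (SE, limma adjusted p = 1.75e-11) and 1.15 ± 0.09 in control mice (SE, limma adjusted p = 4.27e-11), the smallest adjusted p of the members in each comparison (probe at chr2:154385798-154385857, mm9).

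**Figure D2:**
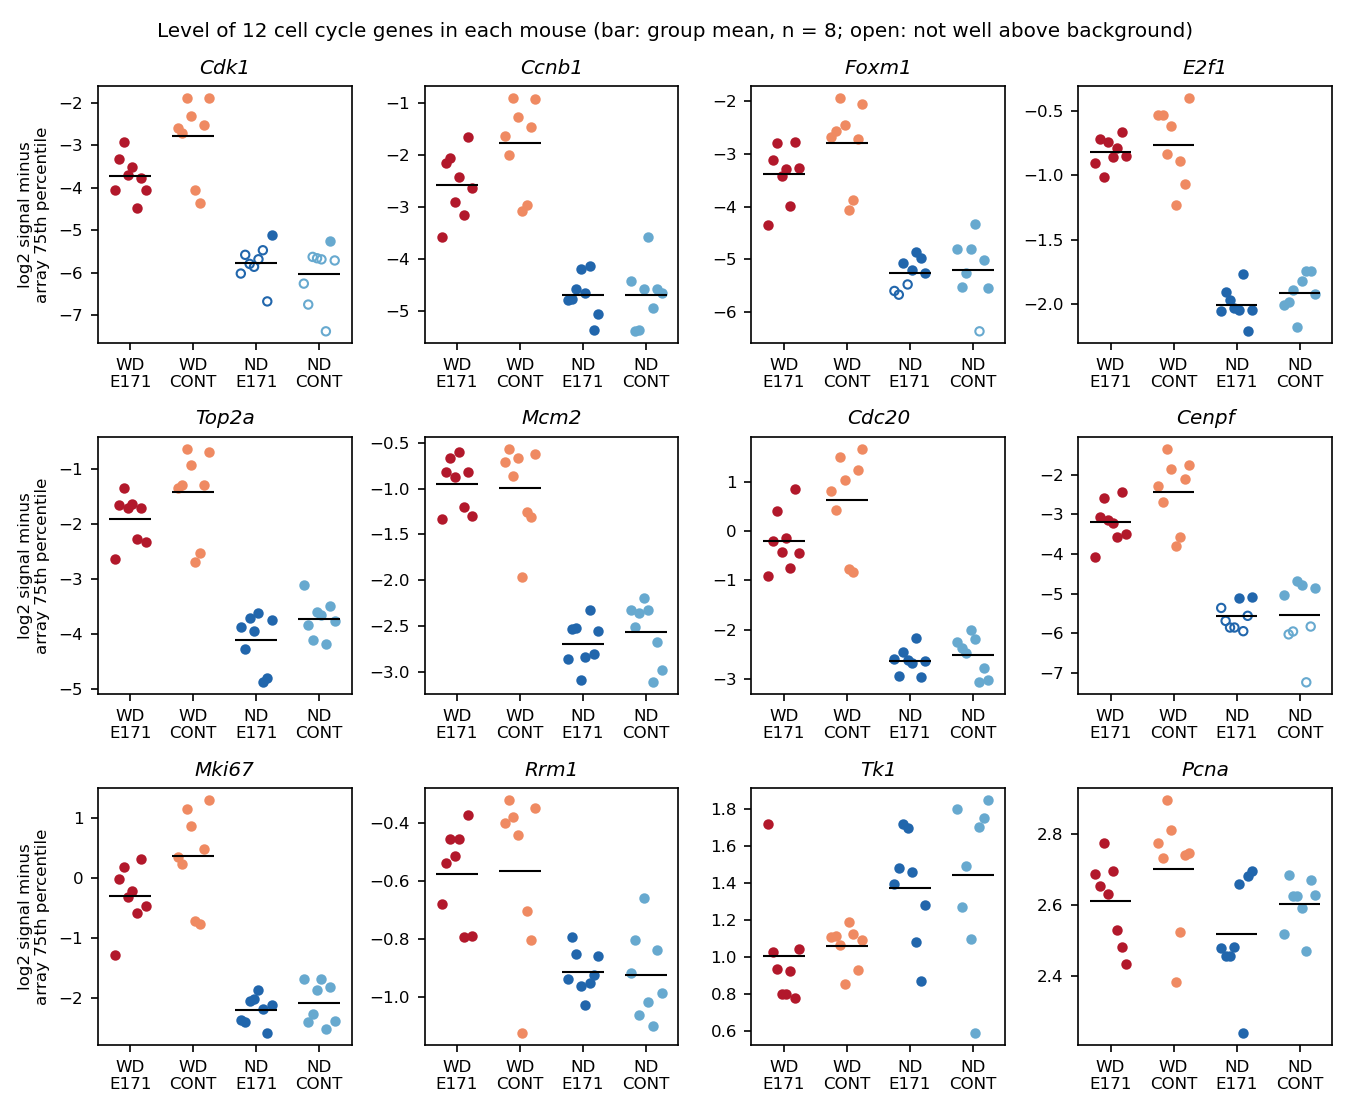
Log2 level of 12 cell cycle genes in each of the 32 mice (points), with the group mean as a bar (n = 8), in the order WD_E171, WD_CONT, ND_E171 and ND_CONT. Open points are arrays on which the probe was not well above background. Cdk1 and Cenpf passed the brightness filter only through a Western-diet group, which by itself favours a gap between diets. Cdk1, E2f1, Top2a, Mcm2, Cdc20, Cenpf and Mki67 separate all Western-diet from all normal-diet mice, Ccnb1 and Foxm1 do so within E171 mice and within control mice, and Rrm1, Tk1 and Pcna span less than 1.4 log2 units over all mice.

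Of the 9 licensing and replication genes 6 were higher in both comparisons. Top2a, the topoisomerase that untangles sister DNA and is made mainly in late replication and mitosis, had levels of -2.64, -1.70 and -1.35 in WD_E171 and -2.70, -1.29 and -0.63 in WD_CONT, against -4.88, -3.91 and -3.62 in ND_E171 and -4.19, -3.71 and -3.10 in ND_CONT. It was higher by 2.20 ± 0.26 in E171 mice (SE, limma adjusted p = 4.99e-08) and by 2.30 ± 0.26 in control mice (SE, limma adjusted p = 3.28e-08), without overlap of the diets (probe at chr11:98854651-98854710, mm9). Its 4 kept probes gave 1.64 to 2.73 in control mice.

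Mcm2, a subunit of the helicase that opens DNA at replication origins, had levels of -1.34, -0.85 and -0.60 in WD_E171 and -1.96, -0.79 and -0.56 in WD_CONT, against -3.09, -2.68 and -2.33 in ND_E171 and -3.12, -2.44 and -2.20 in ND_CONT. The diets did not overlap here either. The difference was 1.74 ± 0.17 in E171 mice (SE, limma adjusted p = 1.44e-09) and 1.57 ± 0.17 in control mice (SE, limma adjusted p = 1.30e-08), from a probe at chr6:88833619-88833678 (mm9). The helicase has 6 subunits, and 5 of them were higher, Mcm3 by 1.20 and 1.04, Mcm4 by 0.98 and 0.80, Mcm5 by 1.37 and 1.35, and Mcm6 by 1.102 and 1.21 in E171 and control mice. The sixth, Mcm7, was not called, at -0.07 in E171 mice and 0.06 in control mice. In control mice Mcm3, Mcm4, Mcm5 and Mcm6 overlapped between the diets, with WD_CONT replicate 5 the lowest Western-diet mouse in each. Pcna, the sliding clamp of the replication fork, was not called, at 0.09 and 0.10, and neither was Cdc6, a loader of the helicase, at -0.04 and 0.08. For Cdc6 a dimmer probe, kept out by the brightness filter and not well above background on any normal-diet array, gave 1.78 in control mice.

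The 4 enzymes of nucleotide supply differed from the other roles, with 1 higher and 1 lower. Rrm1, the large subunit of ribonucleotide reductase, had levels of -0.79, -0.53 and -0.37 in WD_E171 and -1.13, -0.42 and -0.32 in WD_CONT, against -1.03, -0.93 and -0.79 in ND_E171 and -1.10, -0.95 and -0.66 in ND_CONT. It was higher by 0.34 ± 0.09 in E171 mice (SE, limma adjusted p = 0.00276) and 0.36 ± 0.09 in control mice (SE, limma adjusted p = 0.00212), the smallest rise of any called member (probe at chr7:109617223-109617283, mm9). WD_CONT replicate 5 lay below all 8 ND_CONT mice for Rrm1.

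Tk1, the thymidine kinase that salvages thymidine, ran the other way, with levels of 0.78, 0.93 and 1.72 in WD_E171 and 0.85, 1.0998 and 1.19 in WD_CONT, against 0.87, 1.43 and 1.72 in ND_E171 and 0.59, 1.60 and 1.85 in ND_CONT. The diets overlapped in both comparisons. Tk1 fell by 0.37 ± 0.15 in E171 mice (SE, limma adjusted p = 0.0392) and fell by 0.38 ± 0.15 in control mice (SE, limma adjusted p = 0.0356), from a probe at chr11:117677105-117677164 (mm9), and these calls near the threshold were lost when single mice were left out. Its 2 other kept probes gave -0.42 and -0.27 in E171 mice and -0.41 and -0.34 in control mice. Rrm2, the small subunit of the reductase, differed by -0.09 and -0.04 in E171 and control mice, and Tyms, thymidylate synthase, by 0.06 and 0.13, none of them called.

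All 7 mitotic kinases, phosphatase and passenger complex genes were higher in both comparisons, and 5 of them passed the brightness filter in a normal-diet group. Melk, a kinase found in dividing cells, was well above background in all 8 WD_E171 and in 7 WD_CONT mice, but in 0 ND_E171 and 1 ND_CONT mouse. Its levels were -5.40, -4.23 and -3.56 in WD_E171 and -5.53, -3.49 and -2.77 in WD_CONT, against -7.84, -6.93 and -6.07 in ND_E171 and -7.83, -6.38 and -5.39 in ND_CONT. The groups did not overlap in E171 mice and did overlap in control mice. Since no ND_E171 array measured it above background, the E171 value is only a bound: Melk was at least 2.49-fold higher in WD_E171, at a mean of -4.34, against -6.97 in ND_E171 (limma adjusted p = 1.22e-06). Such bounds set the dim group at the faintest signal that the array still called well above background, or at the probe's own signal where that was higher. The adjusted p printed beside a bound, here and below, is that of the fitted difference and does not test the bound. In control mice the fitted log2 difference was 2.80 ± 0.38 (SE, limma adjusted p = 5.67e-07), from a probe at chr4:44377041-44377100 (mm9). It rests on ND_CONT values near background, as only 1 ND_CONT mouse was well above it. Under the alternative processing settings the Melk difference ran from 0.25 to 2.78 in E171 mice and from 0.43 to 3.06 in control mice.

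Cdc25c, the phosphatase that switches Cdk1 on, was not well above background in any of the 16 normal-diet mice, but in 6 WD_E171 and 8 WD_CONT mice. It was at least 2.18-fold higher in WD_E171, with a mean of -4.53, against -6.97 in ND_E171 (limma adjusted p = 6.59e-07). In control mice it was at least 4.04-fold higher in WD_CONT, with a mean of -3.67, against -7.12 in ND_CONT (limma adjusted p = 2.32e-09). Its lowest, median and highest levels were -5.56, -4.52 and -3.41 in WD_E171 and -5.26, -3.32 and -2.48 in WD_CONT, against -7.67, -7.03 and -6.17 in ND_E171 and -7.60, -7.25 and -6.30 in ND_CONT, with no overlap. With normexp background correction the Cdc25c difference in E171 mice was 0.18 and not called (limma adjusted p = 0.109), and in control mice it was 0.45 (limma adjusted p = 0.000276). As run here, normexp also added a fixed offset to every spot, which by itself shrinks the log2 differences of dim probes. The other members of this role were measured above background in more mice. Plk1, polo-like kinase 1, was higher by 1.95 and 2.62 in E171 and control mice, Aurka, Aurora kinase A of the spindle poles, by 1.34 and 1.66, and Aurkb, Aurora kinase B of the chromosomal passenger complex, by 1.54 and 1.68. Birc5, survivin, and Cdca8, borealin, are further subunits of that complex. Birc5 was higher by 1.98 and 2.48 and Cdca8 by 1.41 and 1.56.

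All 6 genes of the spindle checkpoint and of anaphase were higher in both comparisons, but only 3 of them passed the brightness filter in a normal-diet group. Cdc20, which activates the anaphase-promoting complex, had levels of -0.90, -0.31 and 0.86 in WD_E171 and -0.83, 0.93 and 1.68 in WD_CONT, against -2.96, -2.63 and -2.18 in ND_E171 and -3.07, -2.43 and -2.0 in ND_CONT. The lowest Western-diet mouse lay more than 1 log2 unit above the highest normal-diet mouse. The difference was 2.44 ± 0.29 in E171 mice (SE, limma adjusted p = 6.37e-08) and 3.17 ± 0.29 in control mice (SE, limma adjusted p = 7.84e-10), which was the largest in either comparison among members measured above background on all 32 arrays (probe at chr4:118105534-118105593, mm9). Its promoter, shown above, holds TTTGAA between CCAAT letters.

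Ttk, the kinase that starts the checkpoint signal, was well above background in 5 WD_E171, 6 WD_CONT, 0 ND_E171 and 0 ND_CONT mice. Its mean was -5.62 in WD_E171, against -7.83 in ND_E171 (limma adjusted p = 8.14e-06 for the fitted difference), with a bound of at least 1.02-fold. That bound is almost no difference. The mean was -4.73 in WD_CONT, against -7.58 in ND_CONT (limma adjusted p = 1.96e-07 for the fitted difference), with a bound of at least 1.93-fold. In E171 mice the diets overlapped, as WD_E171 replicate 1 lay at -8.03, below the ND_E171 median of -7.85. The other Ttk probes, all too dim to be kept, gave 0.01 to 0.85 in E171 mice and 0.56 to 1.76 in control mice. Bub1 and Bub1b are further checkpoint kinases, and the probes used for them were below background in all ND_E171 mice. On these probes they were at least 1.84-fold and 2.51-fold higher in WD_E171, with means of -4.78 and -4.25, against -6.88 and -5.84 in ND_E171 (limma adjusted p = 2.57e-06 and 9.23e-05). With normexp correction these differences in E171 mice were 0.08 and 0.17 on the log2 scale and not called (limma adjusted p = 0.316 and 0.0776), and that of Ttk was 0.10 (limma adjusted p = 0.304). In control mice the fitted differences of Bub1 and Bub1b were 2.41 and 2.15, but only 1 and 2 of the 8 ND_CONT mice were well above background, and with normexp they were 0.18 and 0.30. Another Bub1 probe, too dim to be kept, gave -0.58 in E171 mice and -0.04 in control mice. It was well above background on 0 WD_E171, 4 WD_CONT, 3 ND_E171 and 2 ND_CONT arrays. Mad2l1, the Mad2 protein that holds back Cdc20, was higher by 1.01 and 1.17 in E171 and control mice. Ube2c, the enzyme that passes ubiquitin to the anaphase-promoting complex, was higher by 1.91 and 2.34.

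All 7 spindle, kinetochore and cytokinesis genes were called higher in both comparisons as well, but only 3 of them passed the brightness filter in a normal-diet group. Kif11 lost its call in both comparisons with normexp correction (limma adjusted p = 0.693 in E171 mice and 0.265 in control mice). Cenpf, a kinetochore protein, had levels of -4.08, -3.19 and -2.44 in WD_E171 and -3.81, -2.20 and -1.35 in WD_CONT, against -5.95, -5.62 and -5.08 in ND_E171 and -7.24, -5.43 and -4.69 in ND_CONT. No mouse overlapped between diets, but Cenpf was well above background in 2 ND_E171 and 4 ND_CONT mice only. Its gap and fitted differences thus rest in part on normal-diet values near background. Cenpf passed the filter only through a Western-diet group, which by itself favours such a gap. The difference was 2.35 ± 0.33 in E171 mice (SE, limma adjusted p = 9.17e-07) and 3.12 ± 0.33 in control mice (SE, limma adjusted p = 1.04e-08), from a probe at chr1:191465934-191465993 (mm9).

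Tpx2, which targets Aurora kinase A to the spindle, had levels of -4.49, -3.56 and -2.82 in WD_E171 and -4.42, -2.65 and -1.94 in WD_CONT, against -7.27, -6.30 and -5.06 in ND_E171 and -6.82, -5.73 and -4.97 in ND_CONT. The diets did not overlap. Tpx2 was well above background in 2 ND_E171 mice and 1 ND_CONT mouse, so the fitted differences rest on normal-diet values near background. It was higher by 2.49 ± 0.35 in E171 mice (SE, limma adjusted p = 8.58e-07) and by 2.96 ± 0.35 in control mice (SE, limma adjusted p = 6.95e-08; probe at chr2:152719476-152719535, mm9). The motor proteins Cenpe, Kif11 and Kif20a were higher by 2.16, 1.03 and 1.90 in E171 mice and by 2.47, 1.37 and 2.67 in control mice. Nusap1, a microtubule-binding protein, was higher by 2.60 and 2.58, and Prc1, which bundles the microtubules of the dividing cell's midzone, by 2.32 and 2.85. Prc1 is the member whose probes disagreed most. Of its 5 kept probes, 3 gave 2.85, 3.30 and 2.27 in control mice, 1 gave 0.34 and 1 gave -0.56. With that last, second brightest probe in place of the brightest one the Prc1 difference was -0.64 in E171 mice and -0.56 in control mice.

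Mki67, the Ki-67 antigen used to stain dividing cells, had levels of -1.28, -0.26 and 0.32 in WD_E171 and -0.76, 0.42 and 1.31 in WD_CONT, against -2.60, -2.16 and -1.88 in ND_E171 and -2.53, -2.07 and -1.69 in ND_CONT. All 16 Western-diet mice lay above all 16 normal-diet mice. Mki67 was higher by 1.91 ± 0.25 in E171 mice (SE, limma adjusted p = 1.93e-07) and by 2.45 ± 0.25 in control mice (SE, limma adjusted p = 3.47e-09; probe at chr7:142881591-142881650, mm9).

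Over all roles, 33 members differed at least 2-fold and 14 at least 4-fold in both comparisons by the fitted values. The counts and medians here cover all 44 members, with the 10 that passed the filter only through a Western-diet group among them. No share of all tested genes was taken at these folds. With the members that were below background in a whole group set at their bounds these counts were 31 and 10, and the medians of the 44 members were 1.36 in E171 mice and 1.67 in control mice. The size also rests on how background is handled. With normexp correction and its added offset the medians were 0.66 in E171 mice and 0.80 in control mice, and 31 and 38 members were called. The offset by itself shrinks the log2 differences of dim probes, and its part was not tested apart from the correction. In the authors' deposited log2 value table the medians were 1.04 and 1.23.

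E171 made no difference that passed the threshold to any member on either diet. On the Western diet 0 of 44 members were called between WD_E171 and WD_CONT by limma, where 0.385% of all tested genes were, but 17 of the 44 had an unadjusted p below 0.05, as had 12% of all tested genes. Of the 44 differences 40 were below 0, with a median of -0.45, against 0.01 over all tested genes. The members share the same mice, so this count carries no test, and no share of all genes below 0 was taken. The smallest adjusted p was that of Ccnb2, at levels of -1.61, -0.88 and -0.15 in WD_E171, against -1.23, 0.20 and 0.96 in WD_CONT. The 2 groups overlapped, and the log2 difference was -0.91 ± 0.23 (SE, n = 8, limma adjusted p = 0.0801). Next came Birc5 at -0.78 ± 0.22 (SE, limma adjusted p = 0.0988), Ube2c at -0.65 ± 0.20 (SE, limma adjusted p = 0.132), Aurka at -0.59 ± 0.18 (SE, limma adjusted p = 0.135) and Ccnd1 at -0.64 ± 0.21 (SE, limma adjusted p = 0.166). Cdk1 had the lowest difference, -0.94 ± 0.32 (SE, limma adjusted p = 0.195). The 4 members above 0 were Ccne1, Cdk2, Mcm2 and Mcm3, and the replication genes as a role had a median of -0.09, against -0.70 for the spindle genes and -0.60 for the checkpoint genes.

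The call on the Western diet was near enough to the threshold to turn on the setting. Ccnb2 was called lower with normexp correction (-0.79), in the deposited value table (-0.89) and without WD_CONT replicate 6 (-1.09). Without WD_CONT replicate 5 both Ccnb2 (-1.06) and Aurka (-0.72) were called lower. Weighting the arrays by their quality called 9 of 44 members lower, where 0.626% of all genes were called in either direction. Within the 4 slides, each with 2 mice of either group, 7, 1, 6 and 22 of the 44 members lay above 0, with medians of -0.25, -0.75, -0.72 and -0.04, so the fourth slide showed almost no shift.

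On the normal diet 0 of 44 members were called between ND_E171 and ND_CONT by limma, where 0% of all genes were, and 0 had an unadjusted p below 0.05, as had 4.14% of all genes. The median difference was -0.09, and values ran from -0.44 for Melk to 0.27 for Cdk1, 2 genes that were near background on this diet. Cdk1 and Ccnb2 had differences of 0.27 and 0.04 on the normal diet beside -0.94 and -0.91 on the Western diet. Whether the E171 difference itself depended on diet was tested as an interaction, with 0 of 44 members and 0% of all genes called by limma. At an unadjusted p below 0.05 there were 4 of 44 members, and 5.25% of all genes. The 4 were Ccnb2, Cdk1, Ccnd1 and Cdc25c, with interaction values of -0.94, -1.21, -0.70 and -1.003 and adjusted p of 0.879, 0.893, 0.902 and 0.941. The same quantity seen from the side of diet is that 29 of the 36 members higher on the Western diet had a smaller diet difference in E171 mice than in control mice. Among the 31 of them with no bound it was 24.

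**Figure D3:**
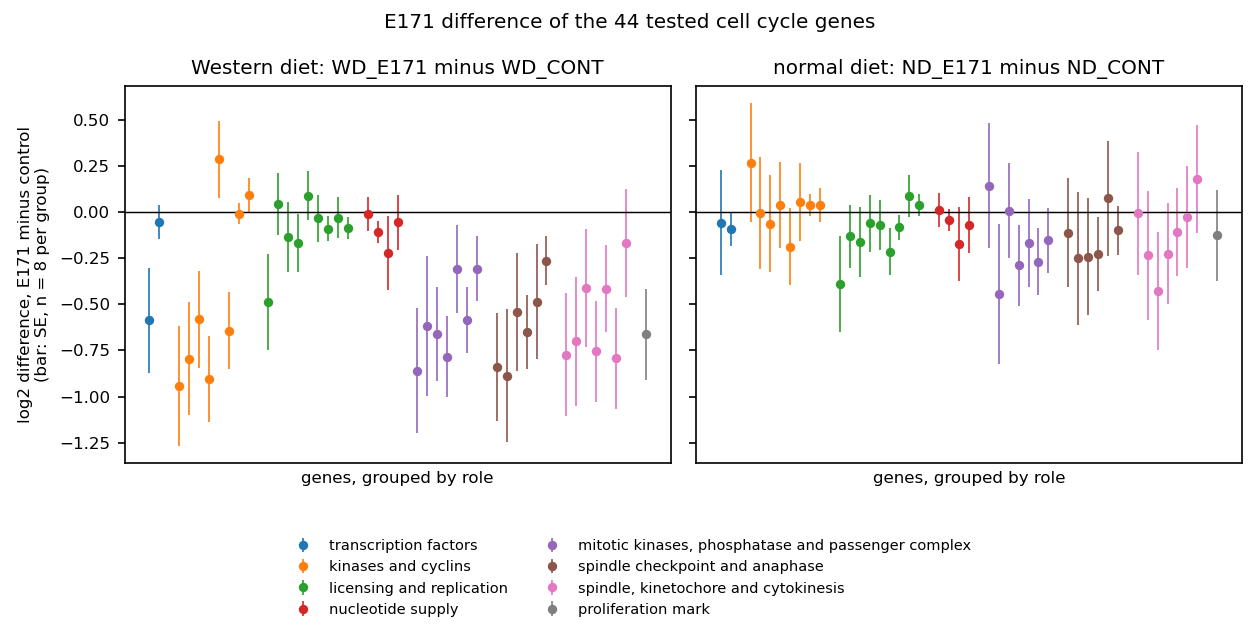
Log2 difference between E171 and control mice for the 44 tested cell cycle genes, coloured and ordered by role, on the Western diet (left, WD_E171 minus WD_CONT) and the normal diet (right, ND_E171 minus ND_CONT), with SE bars from limma and n = 8 mice per group. On the Western diet 40 of 44 points lie below 0, with a median of -0.45 and none called, and on the normal diet 32 of 44 lie below 0, with a median of -0.09 and none called. The points share the same mice, so these counts carry no test.

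The highest and lowest values of many members fell in the same mice, and the spread between mice was wider on the Western diet. Averaged over the 44 members and set against the ND_CONT mean, the 8 mice lay at 0.82 to 1.75 with a median of 1.39 in WD_E171 and at 0.87 to 2.32 with a median of 1.82 in WD_CONT, against -0.36 to 0.06 in ND_E171 and -0.31 to 0.25 in ND_CONT. Mean and SD were 1.34 ± 0.32 in WD_E171 and 1.75 ± 0.55 in WD_CONT, against -0.10 ± 0.12 in ND_E171 and 0.00 ± 0.21 in ND_CONT (SD, n = 8 each). These means include the 10 members that passed the brightness filter only through a Western-diet group, which by itself favours a diet difference. No mean without them was taken. In WD_CONT, replicates 5 and 6 lay apart from the other 6 in most panels of the plot of levels by mouse. Replicate 5 was the lowest of its group in 27 members and replicate 6 in 15, while replicates 3 and 8 were the highest in 19 and 13. In WD_E171 replicate 1 was the lowest in 29 members and replicate 7 the highest in 26.

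The median SD over the members was 0.41 in WD_E171 and 0.65 in WD_CONT, against 0.29 in ND_E171 and 0.38 in ND_CONT. Over all tested genes it was 0.21, 0.22, 0.20 and 0.21 in the same order of groups. The SD of a member was larger in WD_E171 than in ND_E171 for 31 of 44 members, and larger in WD_CONT than in ND_CONT for 36. It was smaller in WD_E171 than in WD_CONT for 39 of 44. The members share the same 8 mice, so these counts describe these mice and carry no test. The diet difference of the 44 members, with the 10 that passed only through a Western-diet group among them, held in each slide. In slides 1 to 4 there were 40, 38, 40 and 43 of 44 members above 0 in E171 mice and 40, 42, 43 and 37 in control mice.

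**Figure D4:**
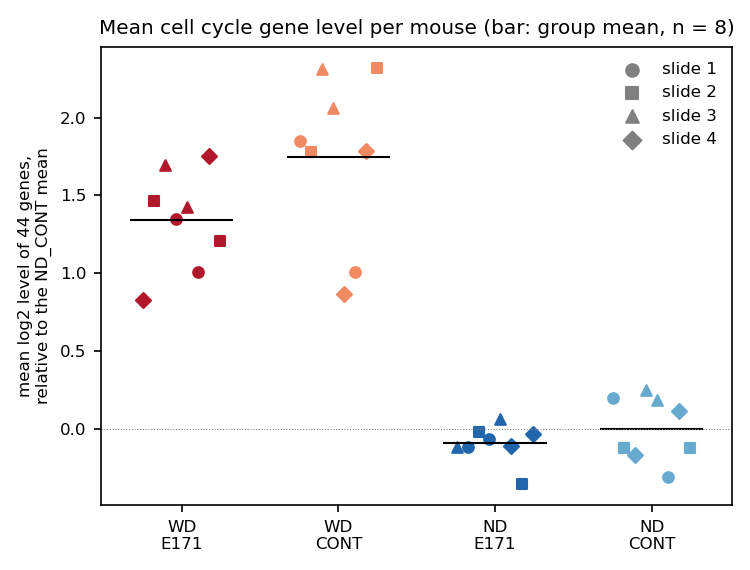
Mean log2 level of the 44 tested cell cycle genes in each mouse relative to the mean of the ND_CONT mice, with the slide as the marker shape and the group mean as a bar (n = 8). WD_E171 mice run from 0.82 to 1.75 and WD_CONT mice from 0.87 to 2.32, all above the normal-diet mice, which end at 0.25. The 44 genes include 10 that passed the brightness filter only through a Western-diet group, which by itself favours such a difference.

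Other genes of the same processes, taken from lists of known functions, were counted in the same fit. Genes that passed the filter only through a Western-diet group were not left out of these counts. Of all tested genes, 21.9% were higher and 32% lower in E171 mice. In control mice these shares were 18.7% and 28.7%. Of 25 other tested spindle and cytokinesis genes, 22 were higher and 1 lower in E171 mice and 21 higher and 2 lower in control mice, with medians of 1.39 and 1.73. Pbk, a kinase of mitotic cells, was not well above background in any normal-diet mouse. It was at least 2.72-fold higher in WD_E171, at a mean of -4.21, against -7.01 in ND_E171 (limma adjusted p = 6.60e-07), and at least 5.71-fold higher in WD_CONT, at -3.17, against -7.00 in ND_CONT (limma adjusted p = 3.99e-09). Ckap2l, Kif14, Kif15, Kif18b, Kif2c and Kif4, counted as higher, were also not well above background in any normal-diet mouse. Their bounds ran from 0.46-fold (Kif18b) to 1.32-fold (Kif15) in WD_E171. In WD_CONT they ran from 0.85-fold (Kif18b) to 2.05-fold (Ckap2l). A bound below 1 sets no least rise. Ckap2, a spindle protein, was higher by 2.94 and 3.66. Of 21 other kinetochore and chromosome genes, 17 were higher and 1 lower in E171 mice and 18 higher and 1 lower in control mice. Nuf2, a subunit of the Ndc80 complex that grips microtubules, was higher by 2.35 and 2.82. Cenph, a kinetochore subunit, was also below background in every normal-diet mouse and was at least 2.31-fold higher in WD_E171, at a mean of -4.45, against -6.82 in ND_E171 (limma adjusted p = 4.65e-06), and at least 2.21-fold higher in WD_CONT, at -4.54, against -6.86 in ND_CONT (limma adjusted p = 8.31e-06). Of 27 other replication factors, 16 were higher and 3 lower in both comparisons, but the medians were 0.24 and 0.25. The largest was Uhrf1, which carries DNA methylation across replication, at 2.08 and 1.96, followed by Gins2, a subunit of the active helicase, at 1.12 and 1.42.

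Of 7 inhibitors of the cell cycle kinases, 4 were higher on the Western diet in E171 mice and 5 in control mice, where 21.9% and 18.7% of all genes were. The differences of the list ran from -0.29 to 1.29 in E171 mice and from -0.12 to 1.62 in control mice, and none was called lower. Cdkn1a, which encodes p21, was higher by 1.29 ± 0.27 in E171 mice and 1.23 ± 0.27 in control mice (SE, limma adjusted p = 0.000245 and 0.000539), and Cdkn2a, the locus of p16 and p19Arf, by 1.04 and 1.62. Cdkn1a was also the one gene of all these cell cycle lists that was called between E171 and control mice. It was lower in WD_E171 than in WD_CONT, by a log2 difference of -1.34 ± 0.27 (SE, limma adjusted p = 0.0239), and stood at -1.40 ± 0.27 between ND_E171 and ND_CONT without passing the threshold (SE, limma adjusted p = 0.393). Of 15 genes of the RB family and other E2F factors, 5 were higher and 2 lower in E171 mice and 4 higher and 3 lower in control mice, with medians near 0. Of 9 growth-phase genes, 2 were higher and 1 lower in E171 mice and 4 higher and 2 lower in control mice. Myc was higher by 1.46 and 1.44, and Egfr, the receptor of the epidermal growth factor, was lower, at -2.03 in E171 mice and -1.26 in control mice.

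Markers of other liver cells moved with diet in the same samples. Beside the counts below, 21.9% of all tested genes were higher and 32% lower in E171 mice. In control mice 18.7% were higher and 28.7% lower. A summed level adds the signal of all markers of a list, so the brightest marker weighs most. Of the lipid-associated macrophage markers 5 of 6 were higher on the Western diet in each comparison, and their summed level, in units of the array's 75th percentile, was 23.5 to 78.4 in WD_E171 and 19.4 to 81.9 in WD_CONT, against 11.8 to 21.0 in ND_E171 and 11.4 to 18.9 in ND_CONT. Gpnmb, one of these markers, was not well above background in any normal-diet mouse. Kupffer cell and macrophage markers were higher in 5 of 7 in each comparison, at sums of 74.7 to 168 and 56.2 to 150 in WD_E171 and WD_CONT, against 40.2 to 78.0 and 29.1 to 101 in ND_E171 and ND_CONT. Stellate cell markers were higher in 5 of 7, at 80.1 to 118 and 65.0 to 128 in WD_E171 and WD_CONT, against 58.7 to 77.3 and 52.6 to 74.9 in ND_E171 and ND_CONT. The part of these cells in the rise of the cell cycle genes was not tested.

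Cholangiocyte markers were higher in 5 of 6 in E171 mice and 4 of 6 in control mice, at sums of 10.5 to 53.7 in WD_E171 and 8.35 to 45.6 in WD_CONT, against 4.81 to 9.96 in ND_E171 and 4.68 to 10.9 in ND_CONT. Spp1 is in this list and in that of the lipid-associated macrophage, so it enters the counts and sums of both. Neutrophil markers were higher in 4 and lower in 1 of 6 in E171 mice, and higher in 2 in control mice. T and NK cell markers were higher in 3 and lower in 2 of 6 tested in E171 mice, and higher in 1 and lower in 2 in control mice, while their summed level was 23.3 to 34.3 in WD_E171 and 22.3 to 50.8 in WD_CONT, against 37.3 to 51.9 in ND_E171 and 37.5 to 47.7 in ND_CONT. In E171 mice every Western-diet sum lay below every normal-diet sum, and in control mice the sums overlapped. B and plasma cell markers were higher in 1 of 6 in each, endothelial markers higher in 2 and lower in 2 of 6 in each, and erythroid markers lower in 0 and 1 of 5 tested. Hepatocyte markers, all 7 well above background in every group and by far the brightest list, were lower in 6 of 7 in E171 mice and 7 of 7 in control mice, at sums of 3396 to 4590 in WD_E171 and 3264 to 4937 in WD_CONT, against 4672 to 6249 in ND_E171 and 4697 to 5840 in ND_CONT. Between E171 and control mice limma called 0 of the 61 tested markers on either diet, with 8 at an unadjusted p below 0.05 on the Western and 3 on the normal diet. On the Western diet the list medians of this difference ran from -0.09 for the lipid-associated macrophage to 0.45 for the B and plasma cell markers, beside -0.45 for the cell cycle genes.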

How the data were processed

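The deposited raw files hold, per the file headers, 1 processed Cy3 intensity per spot, background-corrected on a linear scale, from Agilent Feature Extraction 10.10.1.1 per the submitters' processing notes, which also name limma. A deposited table of log2 values covers 36695 probes. Its normalization is not given in the sources used here, and it served as an alternative.

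Here, control spots and outlier spots (42 to 91 per array) were left out, spots of a probe were averaged as log2 processed signal, and the array's 75th percentile was subtracted. A probe was kept when well above background on at least 6 of 8 arrays of at least 1 group (35777 probes), and the brightest kept probe stood for a gene. Differences came from limma 3.58.1 in R 4.3.3, with 1 mean per group over all 32 arrays, checked on simulated data. Names were matched to RefSeq, and probe positions are those of the file headers' mm9 build.

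The members, lists and tests were chosen with earlier results of these data known. Full values are given for the 2 members of each role with the largest absolute log2 difference averaged over both diet comparisons, and for other lists for the 2 genes highest by the same measure, with fewer where only counts are given. Alternatives changed the background correction (normexp with a fixed offset added to every spot), normalization, filter, probe, block, array weights and each mouse in turn.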

Additional observations from a re-analysis of the deposited data

Results flagged for a closer look

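In each group of 8 mice, the gap between the most extreme mouse and its nearest neighbour was divided by the group's range, over 180 sets of values (44 genes and the mean of all of them in 4 groups). In 6 of the 180 sets it was above Dixon's critical value, where chance flags about 1 in 20 sets. That is fewer than this rate would flag, so none of the mice below is shown to be a true outlier.

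Tk1 stood at 1.72 in WD_E171 replicate 1, while the other 7 mice of the group lay between 0.78 and 1.04. That mouse was the lowest of its group in 29 members and the highest for this one. Rrm2 stood at 1.47 in WD_E171 replicate 7, above the others at 0.36 to 0.89. In WD_CONT replicate 5, Ccne1 stood at -1.90, below the others at -1.31 to -0.82, and Mcm4 at -0.32, below the others at 0.35 to 0.92. Bub1b stood at -6.81 in ND_E171 replicate 1, where no mouse of the group was well above background. The mean of the members stood at -0.36 in ND_E171 replicate 7, below the others at -0.12 to 0.06.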

How the results depend on the processing

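The counts of members called between diets stayed within 1.5 times the count of 37 under every alternative run, from 25 to 38 in E171 mice and from 25 to 40 in control mice. The lowest count was that of a filter asking for 6 of 8 arrays well above background in every group, which tests 32 members. Leaving out single mice gave 36 to 37 and 36 to 39. Quantile normalization gave 38 and 39, and slide as a block 37 and 37. Replicate numbers are shared between groups, and the deviations of same-numbered mice correlated at -0.30 to 0.57, over 0.1 in 23 of 48 pairs. Mice of different numbers were not compared, so whether the numbers pair the mice was not tested. The fit with a replicate block called 37 and 38 members between diets and 0 in the other 3 comparisons.

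Between E171 and control mice on the Western diet, where 0 members were called, normexp background correction called 1 (Ccnb2), the authors' deposited log2 values also 1 (Ccnb2), array weights 9, and leaving out single mice 0 to 2, with the cause not tested. The other alternatives gave 0. On the normal diet and for the interaction every alternative gave 0, leave-one-out fits included.

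The signs that reversed were those of Prc1 with its second brightest probe, at 0.024 for E171 on the Western diet, -0.64 for diet in E171 mice and -0.56 for diet in control mice. Tk1 lost its call in 1 diet comparison or both under normexp, quantile normalization, the deposited table, no filter, its second brightest probe and when any of 18 mice was left out. Bub1, Bub1b, Cdc25c, Kif11 and Ttk lost theirs in E171 mice, and Kif11 in control mice, under normexp with its added offset. Among all genes called between diets, 40.6% and 39.4% were higher in E171 and control mice, against 51.1% and 54.4% in the deposited table. Probes near background limit the fold changes of the dim mitotic genes.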
